A study of Homo sapiens with 8 samples.

Results

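AP-1 is a dimeric transcription factor built from proteins with a basic leucine zipper (bZIP), and the genes described here are 10 that encode its subunits: FOS, FOSB, FOSL1, FOSL2, JUN, JUNB, JUND, ATF3, BATF3 and MAFF. They were chosen by gene symbol, and all 10 were found among the 27945 genes of the count table. The assay was fastGRO-seq, a nuclear run-on that reads nascent RNA, in which nuclei are isolated, engaged RNA polymerases run on with 4-thio-UTP, and the labelled RNA is captured and sequenced. The cells were IMR90, human fibroblasts from embryonic lung. The senescent cells carried oncogenic RAS fused to estrogen receptor (ER:RAS), which is switched on by 4-hydroxytamoxifen (4-OHT) and brings on senescence. There were 4 groups of 2 libraries. The control group carries the labels WT and control, with no shRNA named. The other groups were senescent cells, treated with 4-OHT at 100 nM until harvest on day 6, with a control shRNA (shControl), an shRNA to METTL3 or an shRNA to METTL14, a pair of genes that encode the METTL3-METTL14 RNA methyltransferase. Control cells gave libraries of 18494186 and 18781376 counts in total, shControl cells 20306299 and 19976761, shMETTL3 cells 15688334 and 14897360, and shMETTL14 cells 17230672 and 18074200. In each library, 21 genes annotated as ribosomal RNA or overlapping such a gene held 86.2% to 92.5% of the total. They are called ribosomal genes below, and 1513930 to 2048475 counts were left on all other genes. The 10 AP-1 genes together held 749 and 768 counts in control cells, 732 and 757 in shControl cells, 690 and 645 in shMETTL3 cells, and 1397 and 1215 in shMETTL14 cells.

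AP-1 dimers pair a Jun protein with a Fos protein, with another Jun protein or with a member of a related bZIP family, and they bind short palindromic DNA sequences. Jun and Fos genes are switched on within minutes by growth factors, stress and RAS signalling through MAP kinases, and the subunits differ in how strongly they activate genes. In fibroblasts AP-1 is known for driving matrix metalloproteinases and cytokines, genes that belong to the secretory program of senescent cells.

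Several limits hold for every comparison. With 2 libraries a group, p-values rest on few replicates. The replicates did not vary alike. Their mean variance over sampling noise was 2.01 in control, 11.6 in shControl, 32.5 in shMETTL3 and 19.6 in shMETTL14 cells, ribosomal genes included. The test shares its estimate of spread over the 4 groups, so that estimate can be too small for groups that varied more. Each target gene was knocked down with 1 shRNA. Reads from a spike-in were not used, so a shift of every gene at once is out of sight, and in bulk libraries fewer cells of a type and less RNA per cell cannot be told apart. The counts cover whole gene bodies, introns included, and do not separate the DNA strands. In 60 of 61 pairs in which a gene of at least 100 mean counts lay inside a gene of the opposite strand, the outer gene had at least the count of the inner gene in every library. A gene was called when its adjusted p was below 0.05 in the quasi-likelihood test of edgeR, fitted to all 8 libraries and the 12844 genes that passed a filter on low counts. Of the AP-1 genes, 9 passed and BATF3 did not. Fold changes rest on scaling by TMM, so they are set against the bulk of the genes, and normalized counts are counts scaled to the mean effective library size.

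The levels of the targeted genes come first. METTL3 had 80 and 78 counts in control cells, 77 and 47 in shControl cells, 16 and 19 in shMETTL3 cells, and 73 and 56 in shMETTL14 cells. Only the shMETTL3 libraries were low, and the log2 fold change of shMETTL3 against shControl was -2.04 ± 0.308 (SE; adjusted p = 1.8e-05, edgeR), which is 4.11-fold lower. METTL14 had 60 and 55 counts in control cells, 24 and 28 in shControl cells, 41 and 48 in shMETTL3 cells, and 18 and 14 in shMETTL14 cells. The shMETTL14 libraries were lowest without overlapping any other group, but the difference from shControl, -0.86 ± 0.344 on the log2 scale, missed the threshold (adjusted p = 0.076, edgeR). Over the 17 alternatives that difference ran from -1.03 to -0.51. METTL14 was already lower in shControl than in control cells, by a log2 fold change of -0.76 (adjusted p = 0.047, edgeR). That call was lost with DESeq2, with no filter on low counts (-0.73) and when any 1 control, shControl or shMETTL14 library was left out, with values from -0.68 to -0.83 among those 6 fits, and the value was -1.25 with library size alone. In shMETTL14 cells METTL14 was called lower than in control cells (log2 fold change -1.62, adjusted p = 0.00012, edgeR) and than in shMETTL3 cells (-1.41, adjusted p = 0.001, edgeR). METTL3 with shMETTL3 was lower than in control cells (-2, adjusted p = 4.9e-06, edgeR), and it was higher with shMETTL14 than with shMETTL3 (1.93, adjusted p = 1.9e-05, edgeR). Not called by edgeR were METTL3 in senescence (0.04), after METTL14 knockdown (-0.11) and with shMETTL14 against control cells (-0.07), and METTL14 after METTL3 knockdown (0.56) and with shMETTL3 against control cells (-0.20). With library size alone METTL14 was called higher after METTL3 knockdown, and its value there reached 1.17 over the alternatives.

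The 4 Fos genes encode subunits that need a Jun partner to bind DNA. FOS (NM_005252, hg19 chromosome 14, 75745481 to 75748937, plus strand), the classic immediate-early gene, had 38 and 47 counts in control cells, 48 and 21 in shControl cells, 59 and 53 in shMETTL3 cells, and 50 and 57 in shMETTL14 cells. The shControl libraries lay far apart, 1 of them above and 1 below both control libraries, and once scaled the groups overlapped in most pairs. FOSB (NM_006732, chromosome 19, 45971253 to 45978437, plus strand), a second strongly activating Fos subunit, had 21 and 34 counts in control cells, 24 and 35 in shControl cells, 87 and 57 in shMETTL3 cells, and 44 and 41 in shMETTL14 cells. Both shMETTL3 libraries stood above all others, while the control and shControl libraries overlapped. FOSL1 (NM_001300856, chromosome 11, 65659607 to 65667997, minus strand) encodes FRA1, a Fos protein without the activation domain of FOS, and had 173 and 146 counts in control cells, 74 and 109 in shControl cells, 95 and 77 in shMETTL3 cells, and 353 and 309 in shMETTL14 cells. Its shMETTL14 libraries were far above the other 6, and its shControl and shMETTL3 libraries overlapped. FOSL2 (NM_005253, chromosome 2, 28615779 to 28637516, plus strand), which encodes the related protein FRA2, had 112 and 115 counts in control cells, 47 and 60 in shControl cells, 33 and 17 in shMETTL3 cells, and 97 and 78 in shMETTL14 cells. It was low with shControl, lower with shMETTL3, and high in the control and shMETTL14 libraries.

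The Jun genes encode the partners of every Fos protein. JUN (NM_002228, chromosome 1, 59246463 to 59249785, minus strand), the strongest activator among them, had 210 and 234 counts in control cells, 285 and 273 in shControl cells, 131 and 207 in shMETTL3 cells, and 474 and 403 in shMETTL14 cells. The shMETTL14 libraries were highest, the shControl libraries next, and the shMETTL3 libraries lay below the control libraries in raw counts and overlapped them once scaled. JUNB (NM_002229, chromosome 19, 12902310 to 12904125, plus strand), a weaker activator that can hold back JUN, had 59 and 58 counts in control cells, 80 and 71 in shControl cells, 77 and 61 in shMETTL3 cells, and 116 and 87 in shMETTL14 cells. All senescent libraries exceeded the control libraries in raw counts. JUND (NM_001286968, chromosome 19, 18390504 to 18392466, minus strand), the Jun gene with the steadiest expression in resting cells, had 73 and 69 counts in control cells, 38 and 48 in shControl cells, 47 and 16 in shMETTL3 cells, and 45 and 49 in shMETTL14 cells. Every senescent library was below the control libraries, and of the shMETTL3 libraries 1 lay among the other senescent libraries and 1 far below them.

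The other subunits belong to related bZIP families. ATF3 (NM_001030287, chromosome 1, 212738676 to 212794119, plus strand), a stress-induced partner of Jun proteins, had 18 and 11 counts in control cells, 37 and 30 in shControl cells, 57 and 65 in shMETTL3 cells, and 116 and 88 in shMETTL14 cells. The 4 groups followed each other in that order with no overlap. MAFF (NM_012323, chromosome 22, 38597939 to 38612517, plus strand), a small MAF protein without an activation domain, had 34 and 48 counts in control cells, 97 and 107 in shControl cells, 104 and 92 in shMETTL3 cells, and 99 and 102 in shMETTL14 cells. All 6 senescent libraries lay between 92 and 107 counts and stood above the control libraries. BATF3 (NM_018664, chromosome 1, 212859759 to 212873327, minus strand), which lacks an activation domain too, had 11 and 6 counts in control cells, 2 and 3 in shControl cells, 0 and 0 in shMETTL3 cells, and 3 and 1 in shMETTL14 cells. It did not pass the filter on low counts, and no senescent library held more than 3 of its counts. With no filter BATF3 was called lower with shMETTL3 than in control cells (adjusted p = 0.0035, edgeR) and was not called in the other comparisons. The plot of counts by library shows every member on its own scale.

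**Figure D1:**
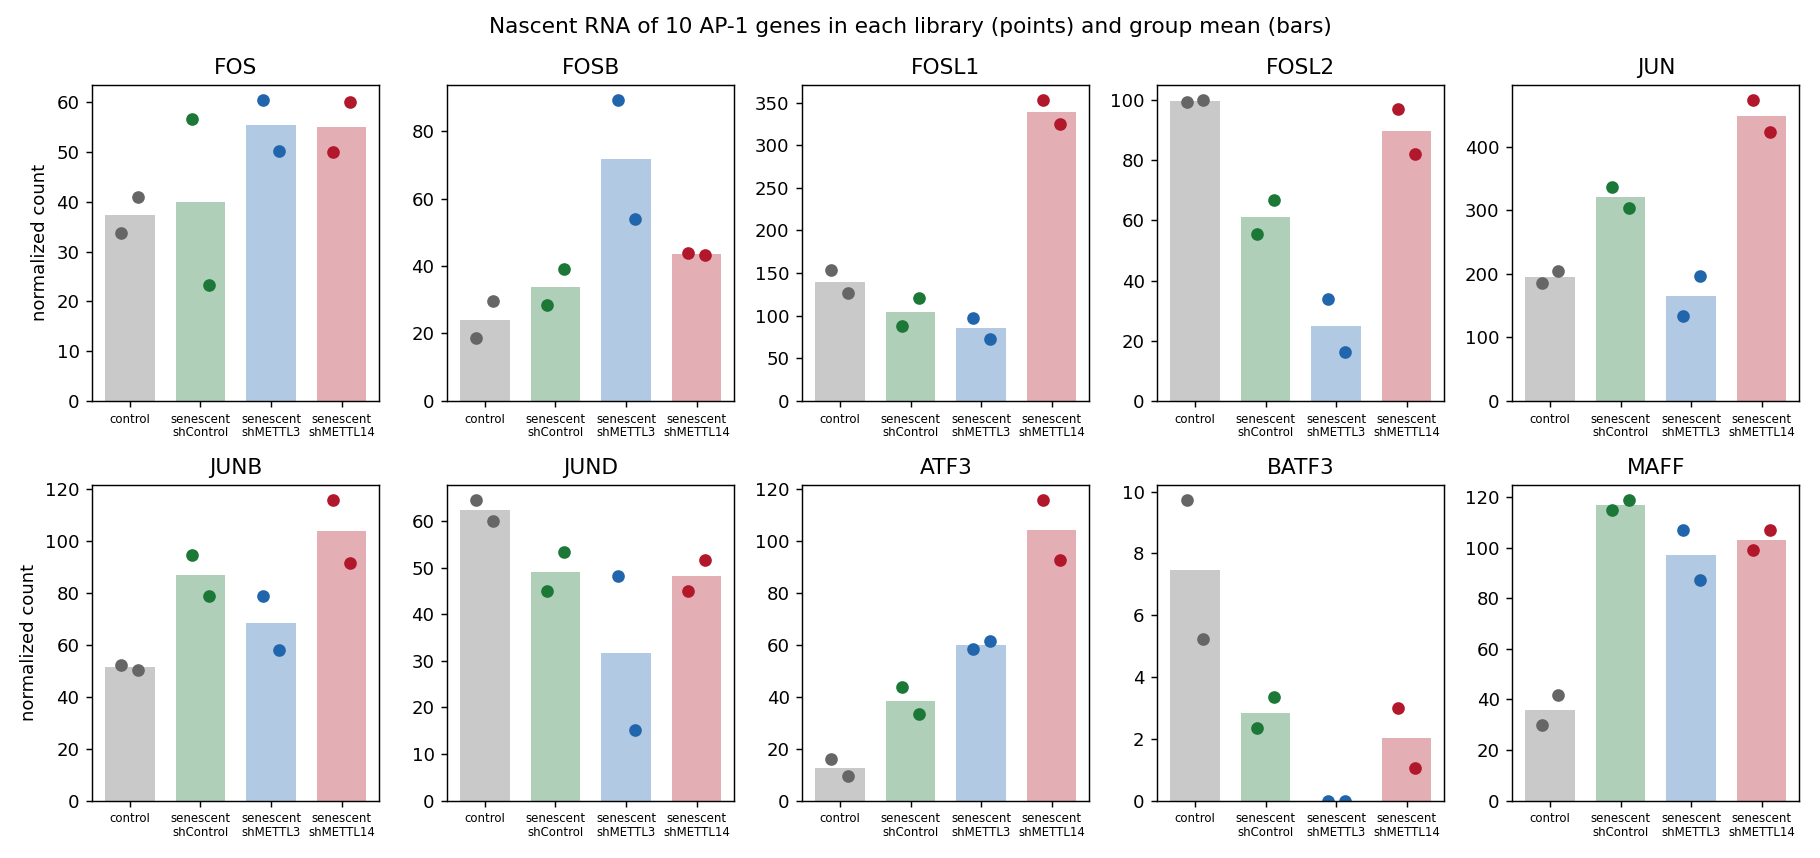
Normalized counts (vertical axis, counts scaled by TMM to the mean effective library size) of the 10 AP-1 genes in the 4 groups, with 2 libraries a group as points and their mean as bars. FOSL1 reached 353 and 325 with shMETTL14 against 73.1 to 153 in the other libraries, and MAFF lay between 87.3 and 119 in every senescent library against 30.1 and 41.8 in the control libraries.

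Promoter sequences were looked up because several members were called in the same direction. RefSeq entries in the promoter set used, on build GRCh38.p14, matched 8 of the 10 genes with 10 start sites, and FOSL1 and BATF3 had no entry in that set. The 250 bases before each start were searched on both strands for TGANTCA, the AP-1 element, for TGACNTCA, the longer element that ATF and CREB proteins bind too, for TATAAA, and for the CArG box that SRF binds. A stretch that matches the first of these cannot be a match to the second. TGACNTCA was found before 4 of the 10 member starts, those of JUN, JUND, the upstream start of ATF3 and 1 start of MAFF, and before 6.87% of all 35116 promoter windows of that length. TGANTCA was found before 0 of the 10 and before 6.57% of all, the CArG box before 0 of the 10 and 1.16% of all, and TATAAA before 4 of the 10 (FOS, FOSB, JUNB and the downstream start of ATF3) and 10.7% of all. A match is a description, not a site or a cause, and no match says only that these letters are not in the window. The exon-free stretches before ATF3 and FOSL2 are printed as 1 with TGACNTCA, in capitals, and 1 without any of the 4 motifs in its 250 bases. Both stretches run 5′ to 3′ on the plus strand and match GRCh37 exactly, ATF3 at chr1:212738499-212738675 and FOSL2 at chr2:28615475-28615668.
ATF3: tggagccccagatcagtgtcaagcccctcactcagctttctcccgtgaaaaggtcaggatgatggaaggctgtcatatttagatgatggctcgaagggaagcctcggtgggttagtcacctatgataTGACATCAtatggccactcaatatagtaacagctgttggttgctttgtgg
FOSL2: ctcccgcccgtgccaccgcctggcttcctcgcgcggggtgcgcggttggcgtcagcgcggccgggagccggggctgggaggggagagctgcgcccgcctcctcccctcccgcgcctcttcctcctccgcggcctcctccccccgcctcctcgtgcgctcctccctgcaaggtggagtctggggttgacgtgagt

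Per length, JUN led in every group. In control cells the group means, in normalized counts per kilobase of gene body, were 58.7 for JUN, 31.8 for JUND, 28.3 for JUNB, 16.7 for FOSL1, 10.8 for FOS and 4.58 for FOSL2. FOSB at 3.35 and MAFF at 2.47 overlapped, and BATF3 (0.552) and ATF3 (0.23) were lowest. With shControl the order per length was JUN at 96.4, JUNB at 47.8, JUND at 25.1, then FOSL1 at 12.4, FOS at 11.6 and MAFF at 8.02, followed by FOSB at 4.69, FOSL2 at 2.81, ATF3 at 0.696 and BATF3 at 0.21. In that group FOSL1 overlapped FOS, and FOS overlapped MAFF. With shMETTL3, JUN (49.8) overlapped JUNB (37.7) per length, JUND (16.2) overlapped FOS (16), FOSL1 (10.2) overlapped FOSB (9.98), and FOSL2 (1.15) overlapped ATF3 (1.08), with MAFF at 6.66 between these pairs and BATF3 at 0. With shMETTL14 no neighbours in the order overlapped: JUN stood at 135 per kilobase, JUNB at 57.2, FOSL1 at 40.4, JUND at 24.6, FOS at 15.9, MAFF at 7.08, FOSB at 6.07, FOSL2 at 4.12, ATF3 at 1.88 and BATF3 at 0.149. FOSL1 stood above JUND per length with shMETTL14 and below it in control and shControl cells, and the 2 genes overlapped with shMETTL3.

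Senescent shControl cells were compared with control cells to ask which AP-1 genes are transcribed more or less once RAS has driven fibroblasts into senescence. RAS signalling is a known inducer of AP-1, and the secretory genes of senescent fibroblasts include AP-1 targets. JUN, JUNB and the inducible partners ATF3 and MAFF moved one way here and FOSL2 the other. No shRNA is named for the control cells, so senescence and shRNA infection cannot be told apart, and the labels do not say whether control cells carried ER:RAS or received vehicle.

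Of the 9 AP-1 genes tested in senescence, 4 were called higher (JUN, JUNB, ATF3 and MAFF), where 13.3% of all tested genes were, and 1 was called lower (FOSL2), again with 13.3% of all tested genes. The median log2 fold change was 0.48 over the 9 genes and -0.03 over all genes tested. MAFF rose from a normalized count of 36 ± 8.27 (SD, n = 2) to 117 ± 3.12, a log2 fold change of 1.70 ± 0.219 (SE; adjusted p = 8e-07, edgeR). ATF3 rose from 12.8 ± 4.5 to 38.6 ± 7.32, or 1.59 ± 0.337 on the log2 scale (adjusted p = 0.00072, edgeR). The rises of MAFF and ATF3 were called in all 17 alternatives. JUN rose from 195 ± 12.6 to 320 ± 23.4, a log2 fold change of 0.72 ± 0.157 (adjusted p = 0.001, edgeR), and JUNB from 51.4 ± 1.23 to 86.8 ± 11, a log2 fold change of 0.75 ± 0.223 (adjusted p = 0.013, edgeR). Scaled by library size alone, which moved the median of all genes to -0.53, JUN was at 0.22 and JUNB at 0.26 on the log2 scale and neither was called. JUNB was not called by DESeq2 either, nor without control replicate 1 (0.78), control replicate 2 (0.73) or shControl replicate 1 (0.63). FOSL2 fell from 99.7 ± 0.679 to 61.2 ± 7.93, a log2 fold change of -0.70 ± 0.229 (adjusted p = 0.023, edgeR). That call rested on all 4 libraries: the value was -0.70 without control replicate 1, -0.69 without control replicate 2, -0.57 without shControl replicate 1 and -0.83 without shControl replicate 2, none of them called, and DESeq2 did not call it. With library size alone FOSL2 was called at -1.19.

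The other Fos and Jun genes were not called in senescence. FOSL1 was at -0.42 on the log2 scale (adjusted p = 0.1, edgeR) and JUND at -0.34 (adjusted p = 0.45, edgeR), and both were called lower with library size alone, at -0.91 and -0.83. FOSL1 was called lower as well when ribosomal genes were left out of the library size (-0.52), a scaling that moved the median of all genes to -0.13. Without shControl replicate 1 FOSL1 was at -0.20 and JUND at -0.21, and without shControl replicate 2 they were at -0.67 and -0.46. FOSB was at 0.48 (adjusted p = 0.32, edgeR) and turned to -0.01 with library size alone. It was at 0.19 without control replicate 1 and at 0.86 without control replicate 2. FOS was at 0.09 (adjusted p = 0.88, edgeR) and turned to -0.41 with library size alone and -0.01 with ribosomal genes left out of it. It was at 0.62 without shControl replicate 2 and at -0.66 without shControl replicate 1.

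METTL3 knockdown was compared with shControl among senescent cells to ask whether AP-1 transcription in senescence depends on the catalytic subunit of the methyltransferase. METTL3 places methyl groups on adenosines of RNA. The 2 AP-1 genes that fell encode a Jun and a Fos subunit, and another Fos gene rose. Both knockdowns share the shControl libraries, so a high or low shControl value moves both.

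After METTL3 knockdown 1 of the 9 AP-1 genes was called higher (FOSB), where 12.2% of all tested genes were, and 2 were called lower (FOSL2 and JUN), where 11.2% were. The median log2 fold change was -0.30 over the AP-1 genes and -0.03 over all genes. FOSL2 fell from a normalized count of 61.2 ± 7.93 (SD, n = 2) to 25 ± 12.5, a log2 fold change of -1.31 ± 0.288 (SE; adjusted p = 0.0014, edgeR), or 2.47-fold lower. JUN fell from 320 ± 23.4 to 165 ± 43.9, a log2 fold change of -0.95 ± 0.162 (adjusted p = 8.8e-05, edgeR). With library size alone the median of all genes moved to 0.58, and FOSL2 at -0.70 and JUN at -0.32 were not called. FOSB rose from 33.7 ± 7.48 to 71.7 ± 24.9, a log2 fold change of 1.08 ± 0.296 (adjusted p = 0.0089, edgeR). It was not called without shMETTL3 replicate 1 (0.66) or without shControl replicate 1 (0.87), and it was at 1.68 with library size alone.

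The members not called after METTL3 knockdown had log2 fold changes from -0.65 (JUND) to 0.64 (ATF3). JUND was called lower without shMETTL3 replicate 1 (-1.71), the library in which it was high, and was at -0.05 without shMETTL3 replicate 2. ATF3, with both shMETTL3 libraries above both shControl libraries, had an adjusted p of 0.08 by edgeR and was called higher with library size alone (1.26). FOS was at 0.48 (adjusted p = 0.28, edgeR). It was called higher with library size alone (1.09) and without shControl replicate 1 (1.23), and it was at -0.05 without shControl replicate 2. JUNB, at -0.35, FOSL1, at -0.30, and MAFF, at -0.27, were not called and took a positive sign with library size alone and with an offset for GC content and gene length.

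METTL14 knockdown was compared with the same shControl libraries to ask the same question of the partner subunit, which holds the RNA for METTL3. The target itself missed the threshold in this comparison, though it was called lower against control cells and against shMETTL3 cells, as given above. The AP-1 genes called here were a Fos gene, a Jun gene and ATF3, and all were higher.

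After METTL14 knockdown 3 of the 9 AP-1 genes were called higher (FOSL1, JUN and ATF3), where 9.15% of all tested genes were. By edgeR 0 were called lower, where 12% of all tested genes were, and 0 were lower at an unadjusted p below 0.05 or by DESeq2. The median log2 fold change was 0.47 over the AP-1 genes and 0.00 over all genes. FOSL1 rose from a normalized count of 104 ± 23.9 (SD, n = 2) to 339 ± 19.4, a log2 fold change of 1.70 ± 0.176 (SE; adjusted p = 5.5e-08, edgeR), or 3.24-fold. ATF3 rose from 38.6 ± 7.32 to 104 ± 16.5, a log2 fold change of 1.44 ± 0.249 (adjusted p = 0.00011, edgeR), or 2.71-fold. The calls of FOSL1 and ATF3 held in all 17 alternatives, from 1.48 to 2.05 for FOSL1 and from 1.25 to 1.80 for ATF3. JUN rose from 320 ± 23.4 to 449 ± 34.9, a smaller log2 fold change of 0.49 ± 0.15 (adjusted p = 0.02, edgeR). JUN was not called by DESeq2 (0.49), without shControl replicate 1 (0.56) or 2 (0.41), or without shMETTL14 replicate 1 (0.39), and it was at 0.85 with library size alone.

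Among the members not called after METTL14 knockdown, FOSL2 had both shMETTL14 libraries above both shControl libraries, at a log2 fold change of 0.55 (adjusted p = 0.1, edgeR). It was called higher with library size alone (0.90), where the median of all genes moved to 0.35, in a fit of only the 2 groups (0.53) and without either shMETTL3 library (0.55 each). FOS was called higher with library size alone (0.82) and without shControl replicate 1 (1.23), while it was at -0.05 without shControl replicate 2. JUNB, FOSB and FOS were at 0.26, 0.37 and 0.47, JUND at -0.03 and MAFF at -0.18. With library size alone JUNB was called higher (0.62), and JUND (0.32) and MAFF (0.17) took a positive sign.

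**Figure D2:**
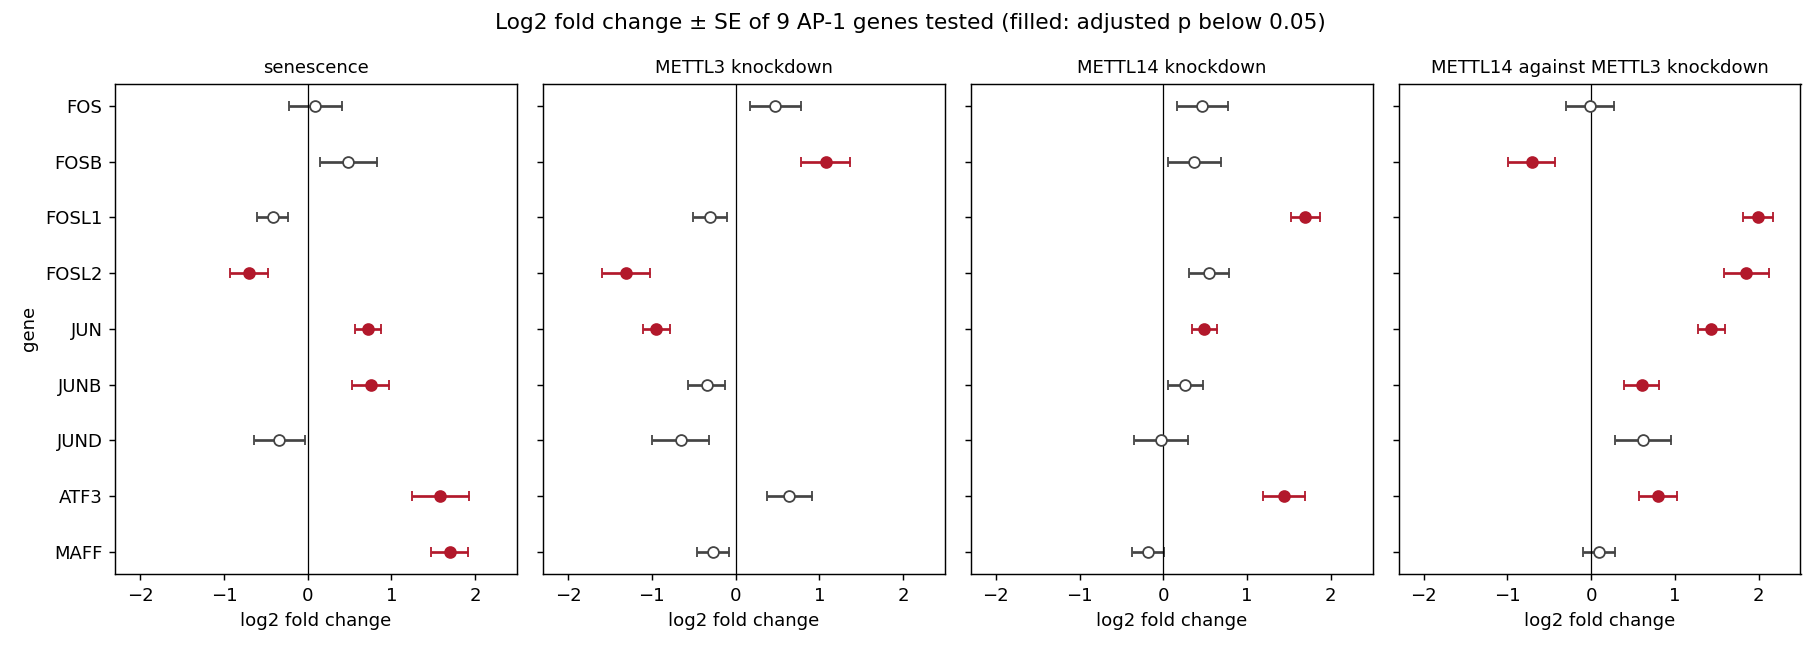
Log2 fold changes (horizontal axis) with their standard errors as bars for the 9 AP-1 genes tested, in 4 comparisons, filled where the adjusted p of edgeR was below 0.05. FOSL1 stood at -0.30 after METTL3 knockdown and at 1.70 after METTL14 knockdown, and JUN at -0.95 and 0.49.

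The knockdowns were compared with each other directly, which tests whether their effects on AP-1 genes differ. METTL3 and METTL14 work as one complex, so the comparison asks whether losing either subunit leaves the same AP-1 transcription. Between the knockdowns edgeR called 6 of the 9 genes and DESeq2 called 3. Of all tested genes edgeR called 16.5% higher and 18.7% lower. Against shControl cells, METTL3 was called lower with its shRNA and METTL14 was not, as given above.

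In METTL14 against METTL3 knockdown 5 of the 9 AP-1 genes were called higher (FOSL1, FOSL2, JUN, JUNB and ATF3), where 16.5% of all tested genes were, and 1 was called lower (FOSB), where 18.7% were. The median log2 fold change was 0.62 over the AP-1 genes and 0.01 over all genes, and the latter moved to -0.25 with library size alone and to 0.22 with ribosomal genes left out of it. FOSL1 stood at normalized counts of 85.3 ± 17.2 (SD, n = 2) in shMETTL3 cells and 339 ± 19.4 in shMETTL14 cells, a log2 fold change of 2.00 ± 0.178 (SE; adjusted p = 4.4e-09, edgeR). FOSL2 stood at 25 ± 12.5 and 89.5 ± 10.5, a log2 fold change of 1.85 ± 0.268 (adjusted p = 5.2e-06, edgeR), and JUN at 165 ± 43.9 and 449 ± 34.9, a log2 fold change of 1.44 ± 0.157 (adjusted p = 8.8e-08, edgeR). FOSL1, FOSL2 and JUN were called in all 17 alternatives, with JUN down to 0.86 under an offset for GC content and gene length. ATF3 was higher by 0.80 ± 0.226 on the log2 scale (adjusted p = 0.0075, edgeR), and was not called by DESeq2, with library size alone (0.54) or without shMETTL14 replicate 1 (0.60). JUNB was higher by 0.61 ± 0.21 (adjusted p = 0.026, edgeR). It was not called by DESeq2, in a fit of only these groups, with library size alone (0.36), without shMETTL3 replicate 2 (0.41) or without shMETTL14 replicate 1 (0.41), and it changed sign with the offset (-0.12). FOSB was lower by a log2 fold change of -0.71 ± 0.279 at the edge of the threshold (adjusted p = 0.049, edgeR). That call was lost by DESeq2, in a fit of only these groups, with replicate number as a block, with at least 10 counts required in every library, with ribosomal genes left out of the library size (-0.51) and in 7 of the 8 fits that left out a library, down to -0.30 without shMETTL3 replicate 1, and kept without shMETTL3 replicate 2. JUND was not called (0.62), but was called higher without shMETTL3 replicate 1 (1.67), was at 0.02 without shMETTL3 replicate 2 and was at -0.20 with the offset. MAFF was not called at 0.09, nor at -0.17 with library size alone or -0.44 with the offset, and FOS was at -0.01.

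Each knockdown was also set against the control cells, to show where AP-1 transcription ends up relative to cells that are not senescent. Both comparisons share the control libraries, and both combine senescence, infection and knockdown. FOSB, ATF3 and MAFF were high against control cells with either knockdown. FOSL1 was low with shMETTL3 and high with shMETTL14.

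With shMETTL3, 3 of the 9 AP-1 genes were called higher than in control cells (FOSB, ATF3 and MAFF), where 20.1% of all tested genes were, and 3 were called lower (FOSL1, FOSL2 and JUND), again with 20.1% of all tested genes. The median log2 fold change was 0.41 over the AP-1 genes and -0.05 over all genes, and leaving ribosomal genes out of the library size moved the latter to -0.26. The fall of FOSL2 was the largest among the 9, at a log2 fold change of -2.01 ± 0.261 (adjusted p = 5.2e-07, edgeR), or 4.01-fold lower. ATF3 was higher by 2.23 ± 0.307 (adjusted p = 1.3e-06, edgeR), FOSB by 1.56 ± 0.298 (adjusted p = 0.00013, edgeR) and MAFF by 1.43 ± 0.22 (adjusted p = 7.6e-06, edgeR). FOSL1 was lower by a log2 fold change of -0.72 ± 0.189 (adjusted p = 0.0031, edgeR) and was not called without control replicate 1 (-0.59) or with the offset for GC content and gene length (-0.31). JUND was lower by a log2 fold change of -0.99 ± 0.317 (adjusted p = 0.014, edgeR). JUND was not called by DESeq2, with the offset (-0.52), without control replicate 1 (-0.94) or without shMETTL3 replicate 2 (-0.38), and was at -2.03 without shMETTL3 replicate 1. JUN, raised in senescent shControl cells, was at -0.23 against control cells with shMETTL3, and its libraries overlapped those of control cells. It was called lower only without shMETTL3 replicate 2 (-0.54) and with ribosomal genes left out of the library size (-0.44), and it was at 0.09 with the offset. FOS, at 0.57, and JUNB, at 0.41, were called higher only with the offset (0.81 and 0.80).

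With shMETTL14, 6 of the 9 AP-1 genes were called higher than in control cells (FOSB, FOSL1, JUN, JUNB, ATF3 and MAFF), where 19.7% of all tested genes were. By edgeR 0 were called lower, where 20.5% of all tested genes were, and 0 were lower at an unadjusted p below 0.05 or by DESeq2. The median log2 fold change was 1.01 over the AP-1 genes and 0.00 over all genes, which moved to -0.14 with library size alone. ATF3 was 8.13-fold higher, a log2 fold change of 3.02 ± 0.286 (adjusted p = 2.2e-09, edgeR). FOSL1 was higher by 1.28 ± 0.164 on the log2 scale (adjusted p = 5e-07, edgeR), JUN by 1.20 ± 0.153 (adjusted p = 4e-07, edgeR), JUNB by 1.02 ± 0.215 (adjusted p = 4e-04, edgeR) and MAFF by 1.52 ± 0.219 (adjusted p = 3.1e-06, edgeR). FOSB was higher by 0.85 ± 0.32 (adjusted p = 0.035, edgeR), a call lost by DESeq2, with library size alone (0.71), with the offset (0.69), and without control replicate 1 (0.56), shMETTL14 replicate 1 (0.85) or shMETTL14 replicate 2 (0.87). FOSL2 was at -0.15 (adjusted p = 0.6, edgeR), and its shMETTL14 libraries lay just below the control libraries. JUND, at -0.37, was called lower only with the offset (-0.72), and FOS, at 0.56, was not called (adjusted p = 0.14, edgeR).

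The make-up of the Fos and Jun families was compared within each library, where scaling cancels. Counts per length of each member were taken as a share of its family, as a description without a test. FOSL1 made up 47.2% ± 6.79 (SD, n = 2) of the Fos family in control, 40% ± 12.3 in shControl, 27.2% ± 0.495 in shMETTL3 and 60.8% ± 2.76 in shMETTL14 cells. Both shMETTL14 libraries had a higher FOSL1 share than any other library, and both shMETTL3 libraries a lower one. In shControl replicate 1, which had the fewest Fos counts, the FOSL1 share per length was 31.3%. As a share of raw counts there, FOSL1 held 38.3% of 193 (95% Wilson interval 31.8% to 45.4%, which covers counting error only). The raw-count shares of FOSL1 in the shMETTL3 libraries, 34.7% and 37.7%, lay within that interval. The share of FOSB per length was 28.8% and 23.9% in the shMETTL3 libraries and at most 18.2% in the others, while that of FOSL2 was 3.61% and 2.35% in the shMETTL3 libraries and at least 5.73% in the others. JUN made up 49.4% ± 2.55 of the Jun family per length in control, 57% ± 0.778 in shControl, 48.6% ± 16 in shMETTL3 and 62.4% ± 0.212 in shMETTL14 cells. The shMETTL3 libraries disagreed, at 37.3% and 59.9%. The Fos family summed to 67.1 and 65.9 normalized counts per kilobase with shMETTL14 and to 29.7 to 43.1 in the other libraries. The Jun family summed to 229 and 205 per kilobase with shMETTL14, 176 and 162 with shControl, 118 and 120 in the control libraries and 109 and 98.8 with shMETTL3.

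**Figure D3:**
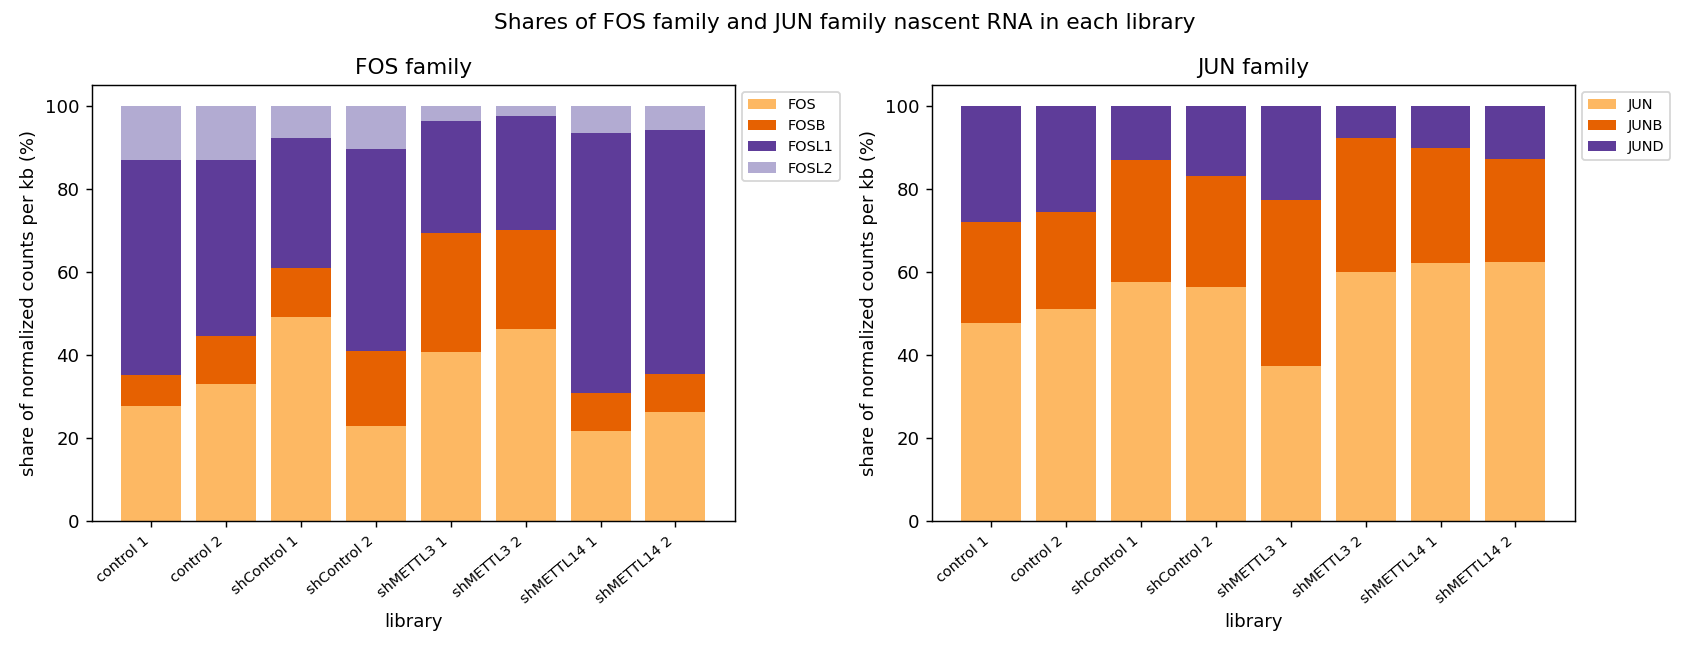
Share in percent (vertical axis) of each gene in the summed counts per length of the Fos family and of the Jun family, 1 stacked bar for each of the 8 libraries. FOSL1 filled 62.7% and 58.8% of the Fos family with shMETTL14 and 26.9% and 27.6% with shMETTL3.

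Most AP-1 genes are short and rich in G and C, and these properties moved with the fold changes of all genes. The gene bodies of the members hold from 43.2% (ATF3) to 69.9% (JUND) G and C, 6 of the 9 tested exceed 55%, and the lengths run from 1815 bases (JUNB) to 55443 (ATF3). In METTL14 against METTL3 knockdown the median log2 fold change was 0.59 over the 1716 tested genes with at least 55% GC and -0.20 over the 7258 with less than 45%. It was 0.42 over the 2399 genes shorter than 10 kilobases and -0.38 over the 2642 of at least 100 kilobases. After METTL3 knockdown the medians were -0.40 at high GC, 0.11 at low GC, -0.30 for short and 0.28 for long genes. After METTL14 knockdown they were 0.19, -0.08, 0.14 and -0.07, and in senescence -0.11, 0.01, 0.09 and -0.13. Against control cells they were -0.47, 0.14, -0.17 and 0.19 with shMETTL3, and 0.12, -0.04, 0.27 and -0.15 with shMETTL14. An offset for GC content and gene length, chosen after seeing the data, changed some AP-1 values. With it JUN was at -0.54 after METTL3 knockdown and still called, and at 0.32 after METTL14 knockdown and not called. FOSL1 and ATF3 were still called after METTL14 knockdown, at 1.52 and 1.49, and FOSL2 and FOSB after METTL3 knockdown, at -1.02 and 1.47. FOS was called higher after METTL3 knockdown, at 0.82, and FOSB was at -1.30 between the knockdowns. The part of GC content and length in the AP-1 results was not tested beyond these values.

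**Figure D4:**
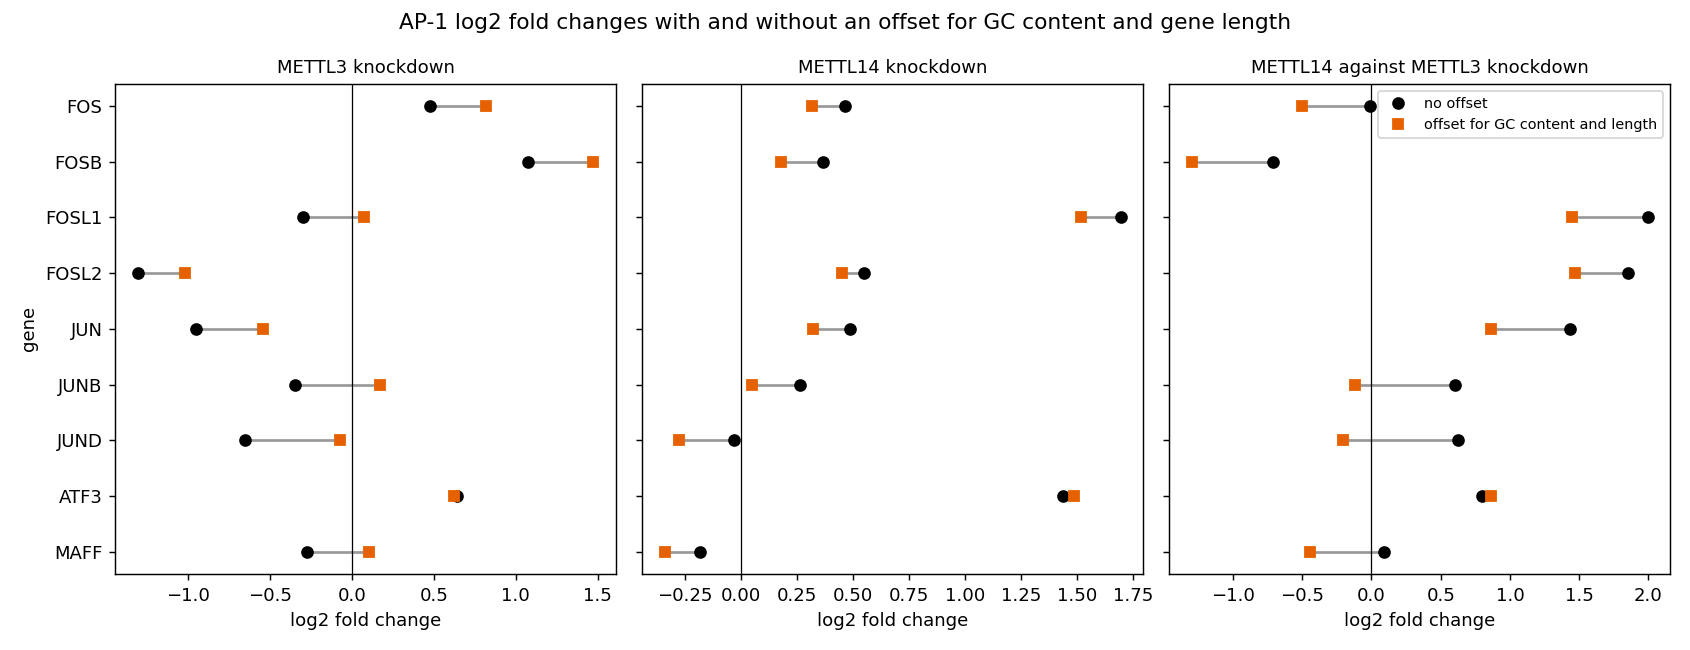
Log2 fold changes (horizontal axis) of the 9 AP-1 genes tested, without an offset (circles) and with an offset for GC content and gene length (squares), in the 3 comparisons between senescent groups. Between the knockdowns JUNB went from 0.61 to -0.12 and JUN from 1.44 to 0.86, FOSL1 from 2.00 to 1.45 and FOSL2 from 1.85 to 1.47.

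Genes upstream of AP-1 and other bZIP genes were described by their counts. For these and the later lists, the shares of all tested genes called are those given above for each comparison. AP-1 genes are induced by RAS through MAP kinases and, for FOS, through SRF and its ternary complex factors. Of 16 RAS and MAP kinase genes, all tested, 2 were called higher (HRAS and MAP2K1, at 0.63) and 2 lower (NRAS, at -0.93, and MAP3K1, at -0.79) in senescence, with a median of -0.06. Of all tested genes 13.3% were called higher and 13.3% lower in senescence. HRAS rose by 0.81 (adjusted p = 6.6e-05, edgeR) in that comparison, from 388 and 386 to 511 and 527 counts, and reads of a RAS transgene and of the endogenous gene cannot be told apart. HRAS fell after METTL3 knockdown (log2 fold change -0.70, adjusted p = 0.00054, edgeR), where 4 genes of the list were higher and 3 lower, with a median of 0.21. The others of largest change there were MAPK3 (-1.11), NRAS (1.03) and MAP2K2 (-0.74), and DESeq2 called only 1 of the 16 lower. MAP2K1, which encodes the kinase that activates ERK, was the 1 gene of the list called after METTL14 knockdown, at 0.83 (adjusted p = 0.00028, edgeR), and the median of the list was 0.17. SRF, its ternary complex factors ELK1, ELK3 and ELK4, and its cofactors MKL1 and MKL2 made a list of 6. In senescence ELK3 was higher, at 1.01 (adjusted p = 3.7e-06, edgeR), and MKL1 lower, at -0.46, with a median of -0.07. After METTL3 knockdown 2 were higher (MKL1, at 0.66, and ELK3, at 0.42) and 2 lower (ELK4, at -0.75, and SRF), with a median of -0.19, while DESeq2 called 1 higher. SRF itself fell from 30 and 46 to 20 and 13 counts (log2 fold change -1.41, adjusted p = 0.0048, edgeR). After METTL14 knockdown edgeR called 0 of the 6, with 0 at an unadjusted p below 0.05 and 0 by DESeq2, and the median was -0.21. Of 16 other bZIP genes 11 were tested. In senescence edgeR called 0 of them, with 0 at an unadjusted p below 0.05 and 0 by DESeq2, and the median was 0.08. After METTL3 knockdown MAFK, a small MAF gene like MAFF, fell (log2 fold change -1.15) and ATF2 rose (0.59), with a median of -0.16. After METTL14 knockdown MAFG was the 1 called, at 0.78, with a median of 0.04, and DESeq2 did not call it.

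The AP-1 genes were set beside other immediate-early genes, which the same signals induce. Of 12 such genes, 6 were called higher in senescence, with a median of 0.95, and 7 after METTL14 knockdown, with a median of 1.12. Of all tested genes 13.3% and 9.15% were called higher in these comparisons. After METTL3 knockdown 3 were called higher and 1 lower, with a median of 0.23. EGR1, a zinc finger factor induced with FOS, had 123 and 94 counts in control cells, 154 and 174 in shControl cells, 162 and 117 in shMETTL3 cells, and 617 and 495 in shMETTL14 cells. Its shMETTL14 libraries stood far above the rest, as those of FOSL1 did, and its log2 fold change after METTL14 knockdown was 1.60 (adjusted p = 4.2e-08, edgeR). EGR2 went from 6 and 5 to 51 and 45 counts after METTL14 knockdown, 7.67-fold higher. The genes called higher after METTL3 knockdown were those of the NR4A orphan receptors, NR4A3 at 1.70, NR4A1 at 1.44 and NR4A2 at 1.24, while IER3 fell, at -1.64. DESeq2 called 5 of the 12 higher in senescence and 5 after METTL14 knockdown, and after METTL3 knockdown it did not call IER3. In METTL14 against METTL3 knockdown 7 of the 12 were higher and 1 lower, with a median of 1.04, and DESeq2 called 0 lower.

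Known targets of AP-1 were described in the same way, and they did not follow the AP-1 genes in every comparison. Of 15 listed targets 14 were tested, and MMP9 was not. In senescence 12 were called higher and 1 lower (CCL2, at -0.87, which DESeq2 did not call), with a median log2 fold change of 2.87. MMP1, which encodes the interstitial collagenase, went from 80 and 68 to 9228 and 8617 counts, and CXCL8, which encodes interleukin 8, from 38 and 41 to 4396 and 4004. MMP10 had 0 counts in both control libraries and 233 and 223 in shControl cells, which is at least 99.4-fold higher against a floor of 3 counts per library. After METTL3 knockdown 12 of the 14 were called lower, with a median of -1.27, and edgeR called 0 higher, with 0 at an unadjusted p below 0.05 and 0 by DESeq2. After METTL14 knockdown 9 were called lower and 2 higher, with a median of -0.72, and in this comparison the AP-1 genes that were called were higher. MMP3, which encodes stromelysin, fell from 5581 and 5385 counts to 179 and 173 with shMETTL3 and to 604 and 505 with shMETTL14, or by log2 fold changes of -5.18 and -3.47. MMP10 fell by log2 fold changes of -5.03 and -5.27 and CXCL8 by -2.68 and -2.23, METTL3 knockdown first in each pair. The 2 targets higher after METTL14 knockdown were HMOX1, at 1.63, and TIMP1, at 0.53. In METTL14 against METTL3 knockdown 9 targets were higher (8 by DESeq2) and 1 lower, with a median of 1.12. Against control cells 11 targets were higher and 2 lower with shMETTL3, with a median of 1.71 (1.65 with genes at 3 or fewer counts in a group set to the floor), and 12 were higher with shMETTL14 (11 by DESeq2), with a median of 3.21 (2.63 with the floor).

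**Figure D5:**
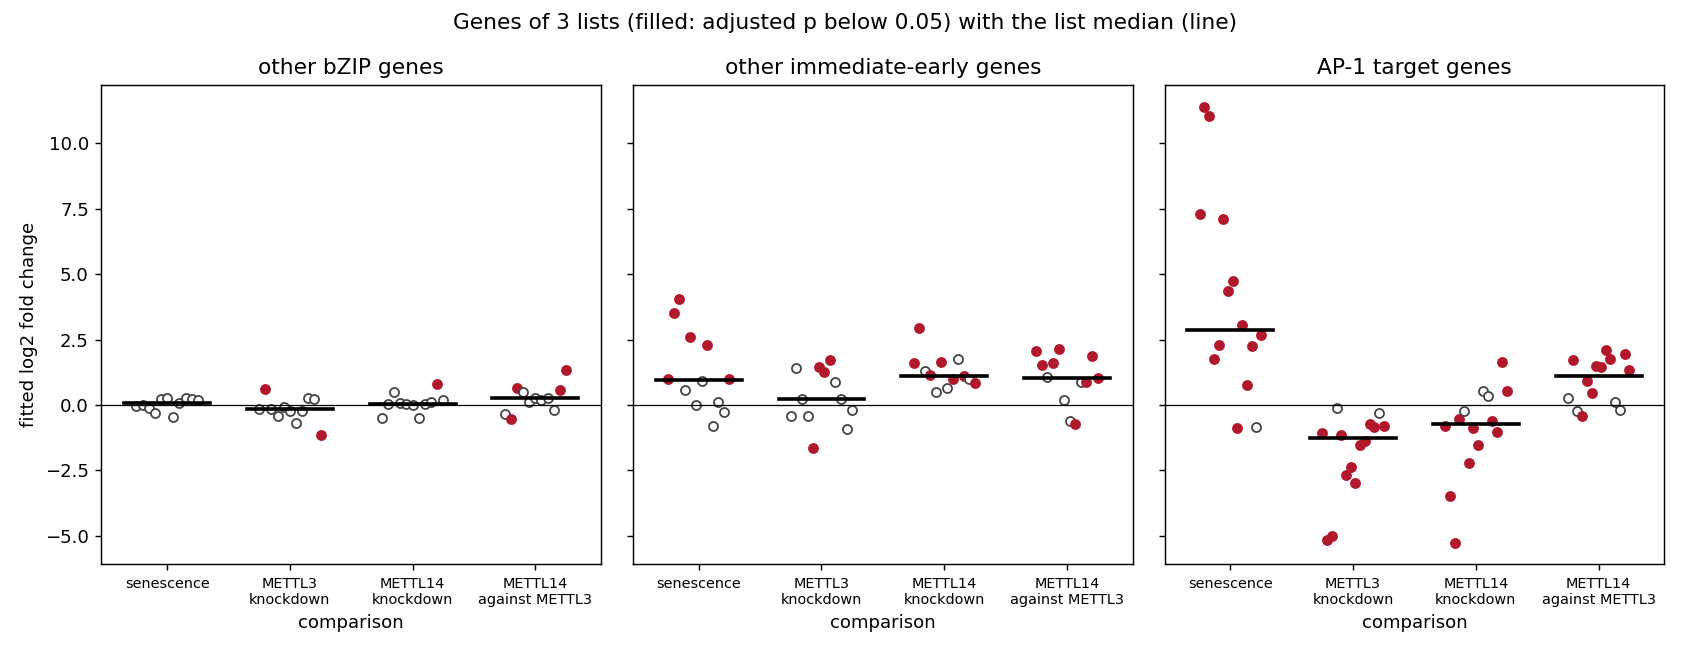
Fitted log2 fold changes (vertical axis) of the tested genes of 3 lists in 4 comparisons, 1 point a gene, filled where the adjusted p of edgeR was below 0.05, with the list's median as a line. The medians of the AP-1 targets were 2.87 in senescence, -1.27 after knockdown of METTL3 and -0.72 after that of METTL14, beside 0.95, 0.23 and 1.12 for the immediate-early genes, and fitted values of genes at 0 to 3 counts in control cells are no measured size.

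Markers of senescence and of cell type give the setting of these AP-1 values. The list of 10 senescence markers mixes genes of arrest and inflammation, which rise in senescence, with LMNB1 and genes of dividing cells, which fall. In senescence the 4 called higher were CDKN1A, CDKN2B, IL1A and IL1B, the 4 called lower were LMNB1, CCNB1, MKI67 and TOP2A, and the median over both kinds was -0.16. CDKN2A (0.50, adjusted p = 0.18) and CCNA2 (-0.82, adjusted p = 0.3) were not called by edgeR. CDKN1A, which encodes the cell cycle inhibitor p21, rose by 1.12 in senescence and by 1.01 after METTL14 knockdown on the log2 scale. After METTL3 knockdown CDKN2B was called higher, and 5 markers of both kinds were called lower (IL1A, IL1B, LMNB1, MKI67 and TOP2A), with a median of -1.45. After METTL14 knockdown CDKN1A was the 1 called higher, and those 5 and CCNA2 were called lower, with a median of -1.63 (-1.41 with the floor). DESeq2 called 3 markers lower in senescence and 4 after METTL14 knockdown. All 11 fibroblast markers were tested, and their summed counts were 39610 and 37551 in control cells, 17525 and 20196 in shControl cells, 18836 and 17078 in shMETTL3 cells, and 10512 and 11593 in shMETTL14 cells. COL6A3 was the most abundant of them in 6 libraries and VIM in both shMETTL14 libraries, and none was at 0 in any library. In senescence 8 of the 11 were lower (6 by DESeq2) and 1 higher, with a median of -1, and after METTL14 knockdown 9 were lower, with a median of -1.18. After METTL3 knockdown 3 were lower and 1 higher, with a median of -0.09. In METTL14 against METTL3 knockdown 7 were lower and 1 higher, with a median of -0.83. Against control cells 8 were lower with shMETTL3, with a median of -1.27. With shMETTL14 10 were lower and 1 higher than in control cells, with a median of -2.05. The 5 epithelial markers summed to 10 counts or fewer in every library with 2 to 5 of them at 0, and the 5 leukocyte markers to 7 or fewer, with 2 to 4 of them at 0. Of 5 endothelial markers 1 was tested, TEK, which had 105 and 123 counts in control cells, 37 and 48 in shControl cells, 49 and 68 in shMETTL3 cells, and 13 and 26 in shMETTL14 cells. The part of these marker changes in the AP-1 results was not tested.

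Neighbouring genes were checked because the counts do not separate strands. Only FOSL2 shares bases with another listed gene, FLJ31356 on the opposite strand, over 1761 bases or 8.1% of its length. FLJ31356 had 21 and 18 counts in control cells, 5 and 13 in shControl cells, 5 and 1 in shMETTL3 cells, and 12 and 14 in shMETTL14 cells, fewer than FOSL2 in each, and it was called in the same direction as FOSL2 between the knockdowns (2.12, adjusted p = 0.017, edgeR). Near FOSL1, both neighbours were higher after METTL14 knockdown. Between the knockdowns they were higher too, CCDC85B by 1.77 (adjusted p = 4.4e-06, edgeR) and C11orf68 by 1.98 (adjusted p = 1e-04, edgeR) on the log2 scale. CCDC85B, 501 bases away, went from 41 and 40 to 98 and 102 counts (log2 fold change 1.14, adjusted p = 0.001, edgeR). C11orf68, 16286 bases away on the other side, went from 21 and 28 to 86 and 60 (log2 fold change 1.41, adjusted p = 0.0041, edgeR). Near MAFF, which was not called after either knockdown, TMEM184B at 2781 bases fell after METTL3 knockdown (log2 fold change -0.64) and rose after METTL14 knockdown (0.59). PRDX2, 3509 bases from JUNB, rose with it in senescence (0.70, adjusted p = 0.014, edgeR), and MYSM1, 80716 bases from JUN, rose too (0.43, adjusted p = 0.043, edgeR), as it did with JUN after METTL14 knockdown (0.47, adjusted p = 0.028, edgeR). LINC01135, only 1038 bases from JUN, was at 0.02 in senescence (adjusted p = 0.99, edgeR). BABAM2, 54012 bases from FOSL2, rose after METTL3 knockdown (0.52, adjusted p = 0.015, edgeR), where FOSL2 fell.

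The genes most like FOS and FOSL1 were found by Pearson's r of log2 of scaled counts over the 8 libraries, among genes of at least 100 mean counts. For FOSL1 the closest of 3882 genes were URGCP-MRPS24 and SMG5 (r of 0.984 each), MRPS6 (0.979), RPS6 (0.97) and LRRFIP1 (0.966). For FOS the closest of 3883 were NAA25 (0.885), INO80D (0.88), RBBP6 (0.849), SRGAP2 (0.829) and PSMD11 (0.817). These are descriptions over 8 libraries that share their groups, and 5 of so many genes were picked for their rank.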

How the data were processed

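Nascent RNA was measured in 8 libraries of 4 groups. The values are the deposited raw counts over whole gene bodies, which the authors made with HOMER, as the file header shows, without normalization. The submitters' processing notes name STAR, deepTools 3.3 and the build hg19, and the libraries were made with a NEBNext kit. The counts did not separate strands, as tested on nested genes. Members were the genes whose symbol, before the first bar in the annotation, is one of the 10 listed. The members and the lists were chosen with earlier results of these data known.

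Counts of all 8 libraries, 14897360 to 20306299 in total, were scaled by TMM and tested with the quasi-likelihood test of edgeR 4.0.16 in R 4.3.3 (limma 3.58.1), after filterByExpr with a minimum count of 10. Of 27945 genes 6423 had no count and 12844 were tested. Contrasts of 1 fit to the 4 groups gave 6 comparisons, and p-values were adjusted by Benjamini and Hochberg over all genes tested, with a threshold of 0.05. For a gene with 3 counts or fewer in both libraries of a group, a fold is given against a floor of 3 counts per library. Shares use counts per length. The tests were checked on simulated data. A first run did not reach the recovery of changed genes asked of it, and the criterion was then replaced by 1 on direction and false calls. Not every changed gene was called there, so a gene not called here may have changed.

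The 9 members tested and both targets are named for each comparison. From each list up to 4 called genes of the largest change in a comparison, or fewer, were named, with the members' nearest genes and the 5 genes most like FOS and FOSL1. CCL2, TIMP1 and the called senescence markers were chosen after their values were seen.

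Results were recomputed with DESeq2 1.42.0 and the size factors it estimates, with scaling by library size, whole or without ribosomal genes, no filter, at least 10 counts in every library, only the 2 groups compared, a replicate block, a minimum change of 1 on the log2 scale, each library left out in turn and, for shares, raw counts. An offset for GC content and gene length (lowess span 0.3, 10 passes, GC known for 99.7% of tested genes) was chosen after seeing the data. Other assays of the study and its spike-in were left out, since gene counts were given for nascent RNA alone. Plots were drawn with matplotlib 3.10.9 in Python 3.11.15.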

Additional observations from a re-analysis of the deposited data

Results flagged for a closer look

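The effects of METTL3 and METTL14 knockdown on 6 AP-1 genes differed by the direct edgeR test of one knockdown against the other, in which the shared shControl libraries cancel. The log2 difference, METTL14 minus METTL3 knockdown, was 2.00 for FOSL1, 1.85 for FOSL2, 1.44 for JUN, 0.80 for ATF3, 0.61 for JUNB and -0.71 for FOSB. Of all tested genes 16.5% were higher and 18.7% lower. DESeq2 called only FOSL1, FOSL2 and JUN, the 3 that were called in all 17 alternatives. ATF3 and JUNB were lost with library size alone too, and FOSB, with an adjusted p of 0.049 by edgeR, was lost in 7 of the 8 fits that left out a library. FOSL1 was at -0.30 after METTL3 knockdown and 1.70 after METTL14 knockdown, FOSL2 at -1.31 and 0.55, and JUN at -0.95 and 0.49. ATF3 was at 0.64 and 1.44, JUNB at -0.35 and 0.26, and FOSB at 1.08 and 0.37. Genes rich in G and C and short genes moved the same way between the knockdowns, with medians of 0.59 and 0.42, and their part was not tested beyond the offset, under which JUNB was at -0.12. With 2 libraries and 1 shRNA for each target, a difference between shRNAs and one between targets cannot be told apart.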

How the results depend on the processing

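Over 54 values, 9 AP-1 genes in 6 comparisons, direction and side of the threshold held for 54 with no filter on low counts, 52 with at least 10 counts in every library, 50 in fits of only the 2 groups compared, 48 with ribosomal genes left out of the library size, 46 with DESeq2, 43 with a minimum change of 1 on the log2 scale, 38 with the offset for GC content and gene length and 32 with library size alone. In senescence MAFF ranged from 1.20 to 1.96 and ATF3 from 1.09 to 2.00, and after METTL14 knockdown FOSL1 ranged from 1.48 to 2.05.

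With library size alone, signs turned for FOS (-0.41), FOSB (-0.009) and METTL3 (-0.46) in senescence, for FOSL1 (0.31), JUNB (0.27) and MAFF (0.34) after METTL3 knockdown, for JUND (0.32), MAFF (0.17) and METTL3 (0.25) after METTL14 knockdown, and for MAFF (-0.17) between the knockdowns. With it, 2 AP-1 genes were called higher and 3 lower in senescence, 3 higher and 0 lower after METTL3 knockdown, 6 higher after METTL14 knockdown and 3 higher between the knockdowns. The 0 is a count by edgeR. All genes shifted too: 752 were higher and 5007 lower in senescence (1711 and 1702 with TMM), 5285 and 353 after METTL3 knockdown (1573 and 1434), 3163 and 710 after METTL14 knockdown (1175 and 1545), and 1177 and 3486 between the knockdowns (2118 and 2399). With ribosomal genes left out of the library size, FOS (-0.011) and METTL3 (-0.061) turned in senescence, JUND (0.066) after METTL14 knockdown and FOS (0.19) between the knockdowns, 2 AP-1 genes were lower in senescence and 0 lower between the knockdowns, where 3206 of all genes were higher and 1658 lower. In senescence 2152 of all genes were lower with that scaling. Library size alone changes only the scaling. Leaving ribosomal genes out also changes the library sizes that enter the filter on low counts. The cause of the differences was not tested.

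With the offset, chosen after seeing the data, FOS (-0.012) and METTL3 (-0.09) turned in senescence, FOSL1 (0.072), JUNB (0.17) and MAFF (0.10) after METTL3 knockdown, JUNB (-0.12), JUND (-0.20) and MAFF (-0.44) between the knockdowns, and JUN (0.088) with shMETTL3 against control cells. It gave 2 AP-1 genes higher after METTL3 knockdown, 5 higher and 1 lower with shMETTL3 against control cells, and 1 lower with shMETTL14 against control cells. Of all genes it gave 1374 higher after METTL3 knockdown. Against control cells it gave 2740 higher and 2464 lower with shMETTL3, and 2663 lower with shMETTL14. The cause was not tested.

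DESeq2 called 0 AP-1 genes lower in senescence, and 3 higher and 0 lower between the knockdowns. Of all genes it called 908 lower in senescence, 971 higher and 727 lower after METTL3 knockdown, 568 and 951 after METTL14 knockdown, 1212 higher between the knockdowns, and 1586 lower with shMETTL3 against control cells (2583 with edgeR). With at least 10 counts in every library FOS was at 0.018 between the knockdowns, and in a fit of only those groups at 0.006, and in each of these 0 AP-1 genes were lower by edgeR. Of all genes 2010 and 1898 were lower there. A minimum change of 1 on the log2 scale, which is stricter by construction, left 2 higher and 0 lower in senescence, 1 lower after METTL3 knockdown, 3 higher and 0 lower between the knockdowns, and 1 lower with shMETTL3 against control cells. Of all genes it left 885 higher and 915 lower in senescence and 688 lower after METTL3 knockdown. Between the knockdowns it left 1103 higher and 1097 lower, and with shMETTL3 against control cells 1592 lower. The cause of the other differences was not tested.

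With replicate number as a block in the design, 0 AP-1 genes were called lower between the knockdowns by edgeR, where FOSB was at -0.71, and the other 53 values held. Of all genes 2400 were lower between the knockdowns with the block. Replicates of equal number share only that number as far as the labels say, and the correlation, across 6318 genes, of the difference between replicates in one group with that in another ran from -0.06 to 0.27 over the 6 pairs of groups. The cause was not tested.

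Leaving out 1 library leaves a group with a lone library that is assumed to vary like the other groups. The lower calls in senescence then ranged from 0 to 1, the higher calls after METTL3 knockdown from 0 to 1, the higher calls between the knockdowns from 3 to 6 and the lower from 0 to 1, and the lower calls with shMETTL3 against control cells from 1 to 4. These calls cover all 10 AP-1 genes. With no filter 4 were lower in that comparison, and BATF3 was the added call (adjusted p = 0.0035, edgeR), as in 7 of the 8 fits without a library. The counts over all genes moved as well: from 1066 to 2146 higher and 763 to 2143 lower in senescence, 769 to 1929 and 723 to 2060 after METTL3 knockdown, 486 to 1642 and 784 to 1930 after METTL14 knockdown, and 995 to 2698 and 1409 to 2712 between the knockdowns. Against control cells they ran from 1929 to 2896 and 1834 to 3082 with shMETTL3, and from 1806 to 3053 and 1738 to 3083 with shMETTL14. FOS ranged from -0.66 to 0.62 in senescence, -0.049 to 1.23 after METTL3 knockdown, -0.052 to 1.23 after METTL14 knockdown and -0.14 to 0.14 between the knockdowns. METTL3 ranged from -0.40 to 0.40 in senescence, -0.47 to 0.34 after METTL14 knockdown and -0.22 to 0.083 with shMETTL14 against control cells. JUND ranged from -0.15 to 0.10 after METTL14 knockdown, MAFF from -0.032 to 0.25 between the knockdowns, and JUN from -0.54 to 0.008 with shMETTL3 against control cells. These fits have fewer libraries, and the cause was not tested further.

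From raw counts in place of counts per length, the share of FOSL1 in its family was 36.2% with shMETTL3 and 64.3% with shMETTL14, and that of JUN 63.1% in control cells, 70.2% with shControl and 74.7% with shMETTL14, since longer genes then weigh more by construction. Depth limits the low members: BATF3, with 0 to 11 counts, did not pass the filter on low counts, and FOS, FOSB and ATF3 rested on 11 to 116 counts a library.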
